A study of Mus musculus with 48 samples.

Results

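Immediate early transcription factors were examined in the thoracic aorta of mice given β-aminopropionitrile (BAPN), an inhibitor of the lysyl oxidases that cross-link collagen and elastin in the vessel wall. The 10 members, taken by gene symbol from the 18782 genes of the count table, were the AP-1 subunits Fos, Fosb, Jun and Junb, the zinc finger factors Egr1, Egr2 and Egr3, the nuclear regulator Ier2, the stress-responsive factor Atf3 and the orphan nuclear receptor Nr4a1. Each of the 48 libraries came from 1 wild-type C57BL/6J mouse. Male and female mice were 3 weeks old at the start and were then given either plain water (10 MaCon, 10 FeCon) or water with 0.4% BAPN for 28 days. BAPN-treated mice were divided by outcome into those without an aortic lesion (4 MaNonAD, 8 FeNonAD) and those with dissection or aneurysm (7 MaAAD, 9 FeAAD), so that NonAD and AAD mice had the same treatment and differed in what it led to. Only mice alive at the end of treatment were sequenced, and RNA of AAD mice came from the lesioned part of the thoracic aorta. In bulk tissue, fewer cells of a type and less RNA per cell cannot be told apart.

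Immediate early genes are transcribed within minutes of a stimulus such as a growth factor, stretch, injury or cytokine, without the need for new protein. Their promoters are reached by SRF with its partners through CArG boxes and by CREB through cyclic AMP response elements, and their RNAs are short-lived. FOS and JUN proteins pair to form AP-1, EGR proteins bind GC-rich promoter sequences, and in the vessel wall these factors are known for their response to mechanical strain and injury and for switching on genes of inflammation, migration and matrix turnover.

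Promoters are printed here for the members that were DEGs in some comparison and had an entry, because immediate early genes are known to be induced together through sites in their promoters. RefSeq (GRCm38.p6) gave the 250 bases before a transcription start for 7 of the 10 members (not Egr1, Egr3 or Ier2) in 11 windows, of which 5 belonged to Egr2. Capitals mark a CArG box of SRF or the core of the cyclic AMP response element, TGACG, which reads CGTCA when it lies on the other strand.
Fos (chr12:85473640-85473889, plus strand): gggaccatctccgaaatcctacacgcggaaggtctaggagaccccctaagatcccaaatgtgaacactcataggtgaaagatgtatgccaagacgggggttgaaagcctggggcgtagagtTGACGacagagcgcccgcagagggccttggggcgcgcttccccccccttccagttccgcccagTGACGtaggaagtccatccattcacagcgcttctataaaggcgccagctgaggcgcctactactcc
Fosb (chr7:19310046-19310295, minus strand): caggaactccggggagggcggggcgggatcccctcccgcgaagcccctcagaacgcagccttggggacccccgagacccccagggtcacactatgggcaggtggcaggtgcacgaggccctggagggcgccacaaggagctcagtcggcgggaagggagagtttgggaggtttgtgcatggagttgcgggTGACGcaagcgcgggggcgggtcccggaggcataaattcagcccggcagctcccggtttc
Junb (chr8:84978749-84978998, minus strand): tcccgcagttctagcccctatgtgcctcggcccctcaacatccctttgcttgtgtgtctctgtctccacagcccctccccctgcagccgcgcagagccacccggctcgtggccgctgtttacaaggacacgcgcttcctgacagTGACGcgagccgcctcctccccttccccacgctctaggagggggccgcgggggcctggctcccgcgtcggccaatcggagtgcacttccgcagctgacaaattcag
Egr2 (chr10:67537619-67537868, plus strand): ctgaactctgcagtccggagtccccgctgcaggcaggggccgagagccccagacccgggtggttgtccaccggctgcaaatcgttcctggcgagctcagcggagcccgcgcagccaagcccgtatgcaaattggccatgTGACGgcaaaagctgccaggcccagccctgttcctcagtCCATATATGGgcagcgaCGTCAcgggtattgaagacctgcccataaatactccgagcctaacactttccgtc
Atf3 (chr1:191183334-191183583, minus strand): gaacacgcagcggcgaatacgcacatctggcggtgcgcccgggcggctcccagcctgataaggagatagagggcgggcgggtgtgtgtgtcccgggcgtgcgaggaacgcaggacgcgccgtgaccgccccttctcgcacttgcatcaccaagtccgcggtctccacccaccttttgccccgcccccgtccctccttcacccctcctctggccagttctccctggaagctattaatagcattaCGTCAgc
Nr4a1 (chr15:101266596-101266845, plus strand): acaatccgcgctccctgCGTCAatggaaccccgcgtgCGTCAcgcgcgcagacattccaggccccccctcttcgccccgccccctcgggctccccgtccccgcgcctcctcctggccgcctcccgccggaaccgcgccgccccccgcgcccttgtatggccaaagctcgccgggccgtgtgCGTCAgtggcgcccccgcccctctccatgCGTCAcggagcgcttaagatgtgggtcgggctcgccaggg
The core TGACG was found on either strand in the windows of 6 of the 7 members, all but Jun, and in 17.8% of 32851 promoter windows of the same length from 27025 genes. Members were counted as genes and the background as windows, so these shares are not the same measure. A member with several windows, such as Egr2 with 5, had more chances of a match. Fos held the core 129 and 66 bases before the start (offsets of -129 and -66), Fosb at -60, Junb at -106, Atf3 at -7, and Nr4a1 at -233, -213, -69 and -40. The printed Egr2 window held the core at -111 and -55 and a CArG box at -72. Egr2 was the only member with that box inside a window, and 1.47% of all windows held it. Of the 5 Egr2 windows, the one farthest upstream held neither, the next held a CArG box at -72 and no core, and the other 3 overlap over the same sites, of which the first is printed. A CArG box more than 250 bases before a start, or one in Egr1, Egr3 or Ier2, could not be seen here. For Egr2, Atf3 and Nr4a1 the printed window lies within the annotated gene, before a start downstream of its outer end. The complete element TGACGTCA, which contains the core on both strands, was in 1.55% of all windows and in none of the members'. An AP-1 site, TGANTCA, was likewise in none of the members' windows (6.75% of all), and the EGR site GCGNGGGCG was found in Fosb at -50 and in Nr4a1 at -60 (4.70% of all). TATAAA was found in Fos at -33 and in 12.4% of all windows. These matches describe letters in a window. The deposited counts were made on another build, GRCm39, so these positions serve only to place the sequences.

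All 10 members were measured in every library, with 24 to 12319 counts each, and all passed the filter on low counts that left 14431 genes for testing. Library totals ranged from 13548003 to 17281262 counts. Levels are given as CPM, counts scaled to the size of each library, with TMM factors of 0.874 to 1.08. The contractile smooth muscle genes that define the tissue, such as Acta2 and Myh11, summed to 13930 to 72720 CPM and none was at 0 in any group. Per kilobase of the longest annotated transcript, Junb (87.7 CPM per kb), Fos (68.9) and Egr1 (52.1) had the highest mean level in FeAAD, and Egr2 (5.63) and Egr3 (3.41) had the lowest. In MaCon the order of the means was different, with Jun (44.4 CPM per kb) and Ier2 (28.0) leading and Egr2 (0.928) and Egr3 (0.958) lowest. The FeAAD means include FeAAD3, with Fos at 526 CPM (FeAAD median 86.3) and Egr1 at 762 CPM (FeAAD median 159). No order by median was made per kilobase.

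**Figure D1:**
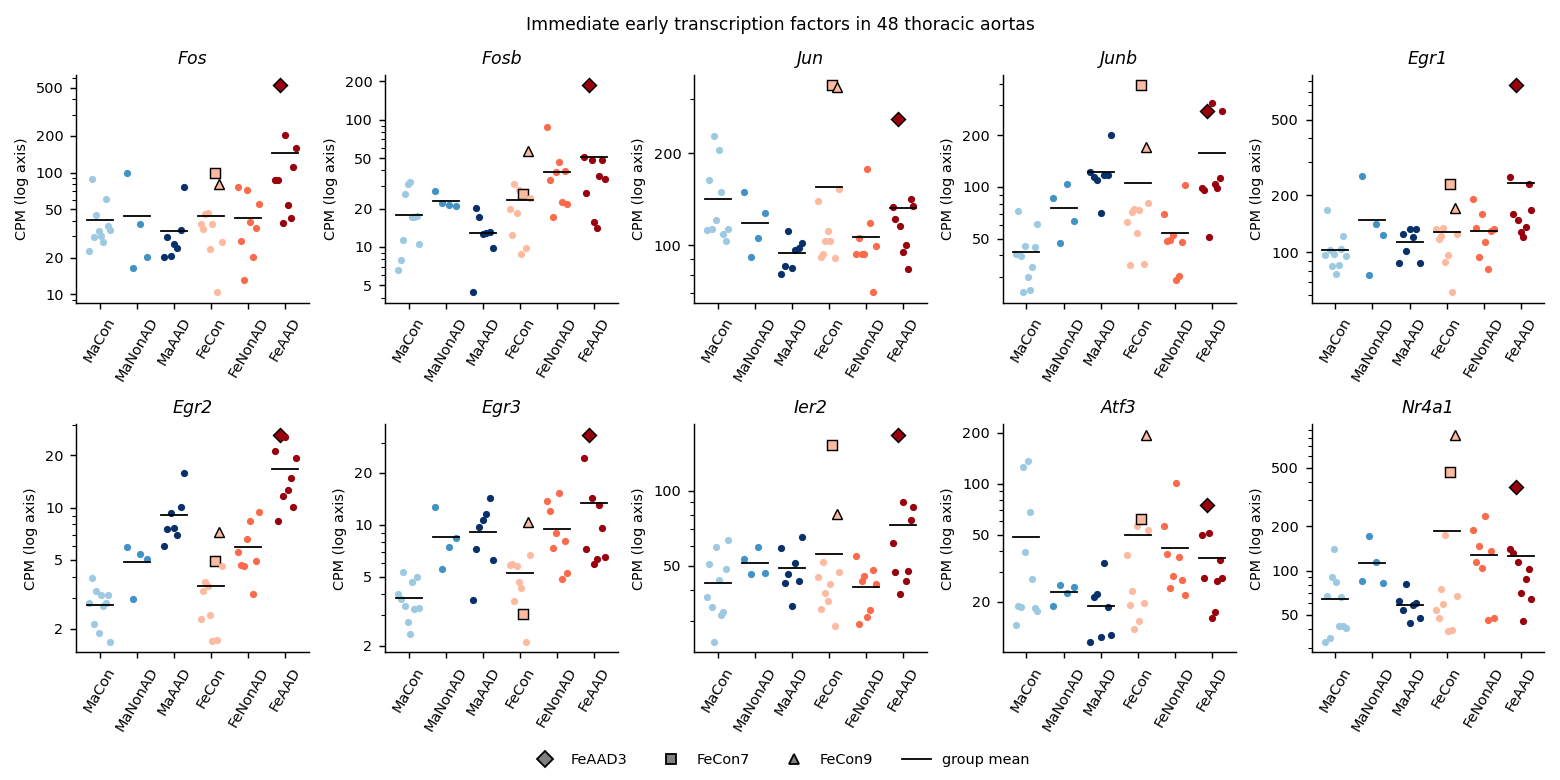
CPM (log axis) of the 10 members in 48 thoracic aortas, 1 point per library, with the mean of each group as a line. FeAAD3 (diamond), FeCon7 (square) and FeCon9 (triangle) stood far above most libraries of their groups for many members, while Egr2 in MaAAD (6.03 to 15.7 CPM) and FeAAD (8.43 to 26.4 CPM) lay wholly above the water group of the same sex.

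Which members differed between outcomes was asked with edgeR's quasi-likelihood test over all 48 libraries, and a member was called a differentially expressed gene (DEG) when its Benjamini-Hochberg adjusted p over all tested genes was under 0.05 and its log2 fold change reached 1 in either direction. In aortas with lesions, Egr2 and Egr3 rose against water controls in both sexes. Fos and Fosb were also DEGs in FeAAD vs. FeCon, and Junb was also a DEG in MaAAD vs. MaCon, where Atf3 fell. Of the 10 members, 4 were higher in FeAAD vs. FeCon, where 12.7% of all tested genes were DEGs and 9.94% were higher. In MaAAD vs. MaCon 3 members were higher and 1 was lower, against 11.4% of all genes called and 9.18% called higher. In FeAAD vs. FeNonAD 3 members were higher, Fos, Junb and Egr2, against 7.04% of genes called and 6.79% called higher. The median log2 fold change of the 10 members was 0.73 in FeAAD vs. FeCon, 0.67 in FeAAD vs. FeNonAD and -0.004 in MaAAD vs. MaCon, and that of all tested genes was 0.001, -0.001 and -0.03. Without FeCon7 and FeCon9, libraries that stood far above their group, the median in FeAAD vs. FeCon was 1.23.

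In BAPN-treated aortas without a lesion, no member passed as a DEG. In MaNonAD vs. MaCon edgeR and DESeq2 each called 0 members, 2 members (Egr2 and Egr3) had an unadjusted p under 0.05, and 0.478% of all genes were DEGs. Fitted on the compared groups only, edgeR called Egr3 there (1.19, adjusted p = 0.0221). In FeNonAD vs. FeCon both tools called 0 members and 2.75% of genes were DEGs. There, 4 members had an unadjusted p under 0.05, and by adjusted p alone 2 members passed, Egr2 and Egr3, against 14.5% of all genes. Shares of all genes at an unadjusted p under 0.05 are not given, so counts of members at that threshold have no background, here or below. Single members crossed the fold threshold there when libraries were left out, Egr2 without FeCon7 and FeCon9 (1.03, adjusted p = 0.00442), Fosb without these and FeAAD3 (1.02, adjusted p = 0.0388), Egr3 without FeCon9 (1.02, adjusted p = 0.019), and Junb, in the other direction, without FeCon2, FeCon8 or FeNonAD8 (-1.07 to -1.17). By adjusted p alone 5 members passed in FeAAD vs. FeCon (44.4% of genes) and 5 in FeAAD vs. FeNonAD (18.2% of genes). MaAAD vs. MaNonAD gave 0 members by both tools, where 0.353% of genes were DEGs, and 1 member (Egr2) had an unadjusted p under 0.05.

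Between the sexes, Junb and Nr4a1 were lower in MaCon than in FeCon, 2 members against 1.51% of genes, and Fos and Fosb were lower in MaAAD than in FeAAD, 2 members against 0.0693% of genes. Neither pair of calls held without the highest libraries, with 0 members called in MaCon vs. FeCon without FeCon7 and FeCon9 and 0 in MaAAD vs. FeAAD without FeAAD3 (adjusted p of 0.516 for Fos and 0.462 for Fosb by edgeR). In MaNonAD vs. FeNonAD edgeR and DESeq2 called 0 members, with 0 at an unadjusted p under 0.05 and 0.0485% of genes called. Whether a response itself differed between the sexes was tested as an interaction, as the male minus the female response. edgeR called 0 members for NonAD vs. Con (0.298% of genes), 0 for AAD vs. Con (0.52%) and 0 for AAD vs. NonAD (0%). At an unadjusted p under 0.05 there were 1, 2 and 3 members, with no share of all genes at that threshold given. DESeq2 called 1 member, Fos, for AAD vs. Con, and 0 for the others.

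**Figure D2:**
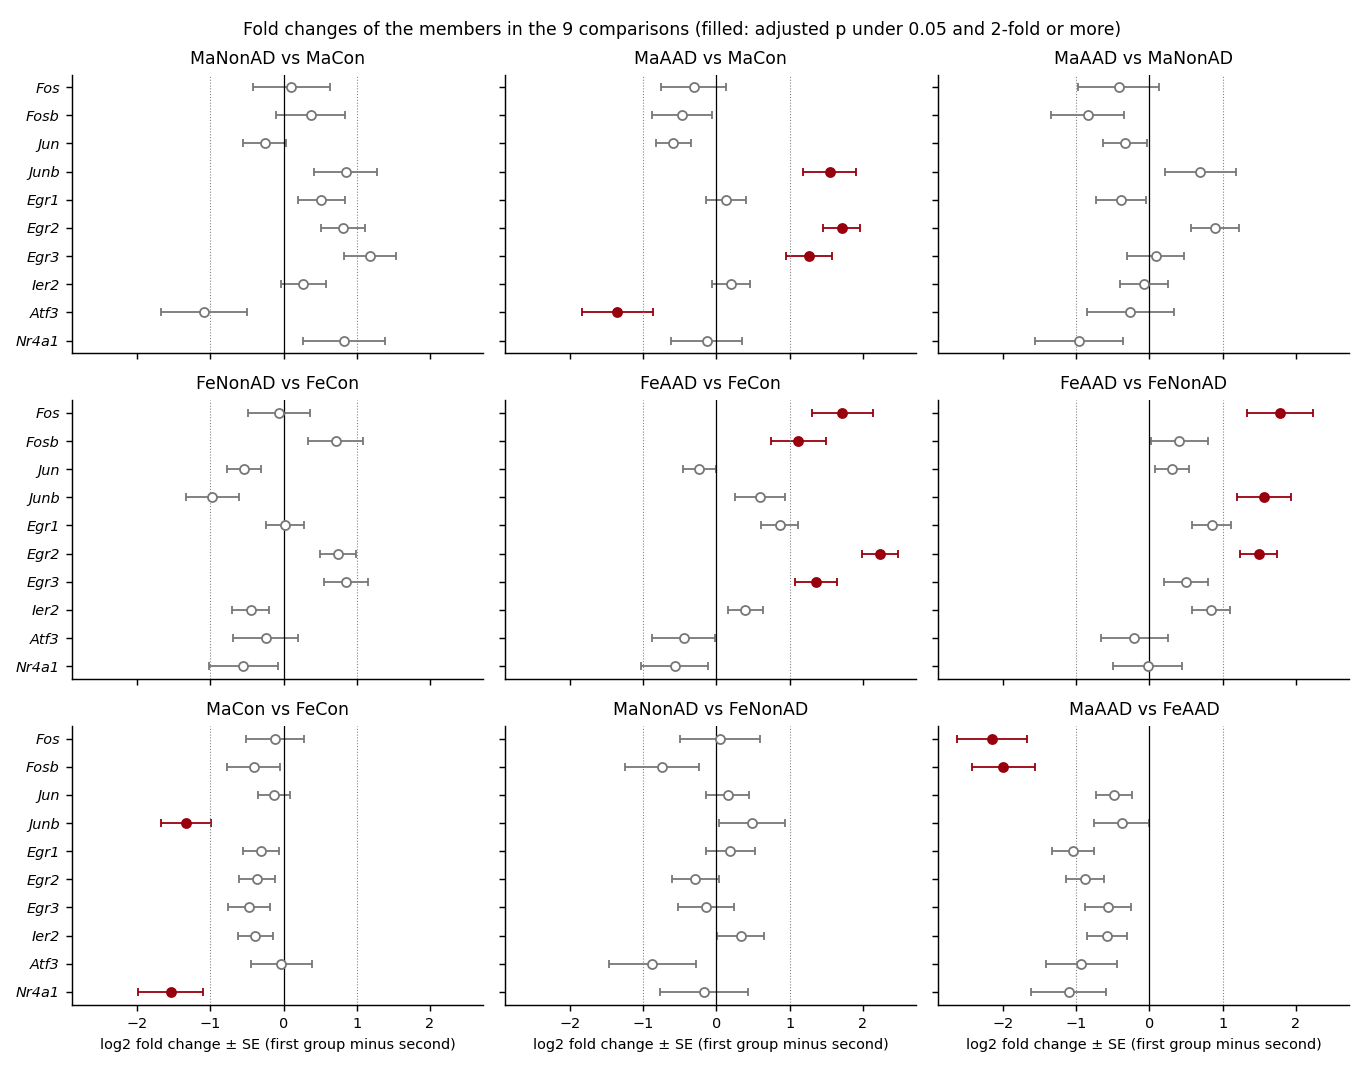
Log2 fold change of each member in 9 comparisons of groups, with bars of ± SE, the threshold of 1 in either direction as dotted lines and DEGs as filled points. Egr2 was to the right of the threshold in MaAAD vs. MaCon, FeAAD vs. FeCon and FeAAD vs. FeNonAD, while Jun passed in none.

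Fos, the inducible partner of JUN proteins in AP-1, was most abundant in FeAAD. It ranged from 38.4 CPM through a median of 86.3 to 526 CPM in FeAAD, from 10.3 through 37.7 to 98.3 CPM in FeCon and from 13.1 through 36.9 to 75.9 CPM in FeNonAD. The lowest FeAAD library was near the middle of FeCon. FeAAD3 (526 CPM), FeAAD5 (205 CPM), FeAAD9 (158 CPM) and FeAAD8 (111 CPM) lay above every library of the other groups. The difference was 1.72 ± 0.41 on the log2 scale (± SE) against FeCon, a 3.29-fold rise with an adjusted p of 0.000687 by edgeR, and 1.78 ± 0.45 against FeNonAD with an adjusted p of 0.00358. Without FeAAD3 these were 1.15 (adjusted p = 0.0108) and 1.21 (adjusted p = 0.0243), still DEGs. In males no such rise was seen. Fos ranged from 22.7 through 33.4 to 88.5 CPM in MaCon and from 20.1 through 25.7 to 75.4 CPM in MaAAD, and 3 MaNonAD libraries had 16.4, 37.9 and 20.4 CPM, while MaNonAD1, with 1670 Fos counts, lay above these and above every MaCon and MaAAD library. The male groups overlapped throughout, and MaAAD vs. MaCon was -0.31 with an adjusted p of 0.62. Directly compared, MaAAD was lower than FeAAD by a log2 fold change of -2.15 ± 0.48 (edgeR adjusted p = 0.0498). This call held in 15 of the 48 fits that left out 1 library and in 4 of 9 other settings, where the adjusted p went up to 1. Without FeAAD3 the value was -1.58 with an adjusted p of 0.516. The sex difference in AAD vs. Con was -2.03 ± 0.61 with an adjusted p of 0.0751 by edgeR and 0.0386 by DESeq2.

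Fosb, a close relative of Fos whose protein also pairs with JUN, was 14.2 to 188 CPM in FeAAD with a median of 36.0, and 8.86 to 56.7 CPM in FeCon with a median of 22.1. FeNonAD was between 17.2 and 88.2 CPM with a median of 36.3, close to that of FeAAD. By mean FeNonAD was lower (38.6 against 51.3 CPM), and FeAAD vs. FeNonAD was 0.41 with an adjusted p of 0.489 by edgeR. FeAAD vs. FeCon was 1.12 ± 0.37 (adjusted p = 0.0121 by edgeR), and without FeAAD3, the library with 188 CPM, it was 0.54 with an adjusted p of 0.183. Fosb was lowest in MaAAD, at 4.40 to 20.2 CPM with a median of 12.9. The 4 MaNonAD libraries were at 27.7, 22.2, 21.4 and 21.0 CPM. MaAAD vs. MaNonAD, at -0.84 with an adjusted p of 0.373 by edgeR, did not pass the test. MaAAD vs. FeAAD was -1.99 ± 0.43 (adjusted p = 0.0367 by edgeR), and -1.41 with an adjusted p of 0.462 without FeAAD3. The call of Fosb held in 39 of 48 fits that left out 1 library and in 5 of 9 other settings, with an adjusted p of up to 1.

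Jun (GRCm38 chr4:95049034-95052222), the AP-1 subunit that also acts as a homodimer, was the least variable of the AP-1 members and was a DEG in none of the 9 comparisons. Its medians were 117 CPM in MaCon, 116.5 in MaNonAD and 96.8 in MaAAD among males. Among females they were 107 CPM in FeCon, 96.6 in FeNonAD and 122 in FeAAD. The largest difference was MaAAD vs. MaCon, at -0.59 ± 0.24 (adjusted p = 0.0532 by edgeR, and 0.0104 without FeCon7 and FeCon9). FeCon7 (335 CPM) and FeCon9 (329 CPM) held the highest values of all libraries.

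Junb, the JUN family member that often restrains Jun, was the AP-1 member with the largest change in males. MaCon ranged from 24.4 through 40.2 to 72.5 CPM and MaAAD from 70.8 through 117 to 202 CPM, so that 1 MaAAD library lay within the range of MaCon. The 4 MaNonAD libraries fell between the medians of those groups, at 86.5, 47.2, 103 and 63.5 CPM. MaAAD vs. MaCon was 1.55 ± 0.37, a 2.92-fold rise (adjusted p = 0.000757 by edgeR). FeAAD was again high, at 51.0 to 309.8 CPM with a median of 104, against 28.6 to 102.5 CPM in FeNonAD with a median of 48.7, a difference of 1.56 ± 0.37 (adjusted p = 0.00236). Against FeCon, which ranged from 35.2 to 393 CPM with a median of 72.7, the difference was 0.59 ± 0.34 with an adjusted p of 0.159. FeCon7 alone held 393 CPM, and without it Junb became a DEG there at 1.12. MaCon vs. FeCon was -1.33 ± 0.34 (adjusted p = 0.00667). Without FeCon7 it was -0.82, under the fold threshold, and without FeCon7 and FeCon9 it was -0.54.

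Egr2 rose with lesions in both sexes and was the only member for which neither AAD group overlapped its water group. This zinc finger factor, known from myelin formation and from activated lymphocytes and macrophages, was at 1.68 to 3.93 CPM in MaCon with a median of 2.81 and at 6.03 to 15.7 CPM in MaAAD with a median of 7.62. FeCon ranged from 1.69 through 3.42 to 7.25 CPM, FeNonAD from 3.18 through 5.25 to 9.49 CPM and FeAAD from 8.43 through 14.9 to 26.4 CPM. The lowest library of each AAD group was above the highest library of its water group. Of all tested genes 3.63% were higher without overlap in FeAAD vs. FeCon, and 6.14% in MaAAD vs. MaCon. MaAAD vs. MaCon was 1.71 ± 0.25, a 3.28-fold rise (adjusted p = 7.26e-07 by edgeR), and FeAAD vs. FeCon was 2.23 ± 0.24, a 4.70-fold rise (adjusted p = 9.68e-10). The sex difference in this response, -0.52 with a 95% interval of -1.21 to 0.16, did not pass the test. FeAAD also lay above FeNonAD by 1.49 ± 0.25 (adjusted p = 9.96e-05), with an overlap of the groups between 8.43 and 9.49 CPM. The 4 MaNonAD libraries were at 5.93, 2.99, 5.39 and 5.08 CPM. MaAAD vs. MaNonAD was 0.90 ± 0.33 with an adjusted p of 0.117 by edgeR. FeNonAD was higher than FeCon by 0.74 ± 0.25, with an adjusted p of 0.0346 and a fold change under the threshold.

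Egr3 (GRCm38 chr14:70077203-70082614), a paralog of Egr2 that is induced in lymphocytes and muscle spindles, rose less and with more overlap. MaCon was at 2.32 to 5.34 CPM with a median of 3.55, and MaAAD at 3.68 to 14.3 CPM with a median of 9.77, of which 1 library lay within MaCon. The 4 MaNonAD libraries were at 12.7, 5.54, 7.49 and 8.42 CPM. MaNonAD vs. MaCon was 1.18 ± 0.36 with an adjusted p of 0.124 by edgeR, or 0.0221 when only the compared groups were fitted. MaAAD vs. MaCon was 1.26 ± 0.31 (adjusted p = 0.00111 by edgeR). In females FeCon was at 2.10 to 10.4 CPM with a median of 5.21, FeNonAD at 4.84 to 15.4 CPM with a median of 8.55, and FeAAD at 5.97 to 33.4 CPM with a median of 9.57. The FeNonAD and FeAAD libraries overlapped over most of their range. FeAAD vs. FeCon was 1.36 ± 0.29 (adjusted p = 0.000162), FeNonAD vs. FeCon was 0.86 ± 0.30 (adjusted p = 0.0445) and FeAAD vs. FeNonAD was 0.50 (adjusted p = 0.248).

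Egr1, the family member best known from injured arteries, had the highest mean log2 CPM of the members over all libraries (7.16) and changed less. It ranged from 61.6 through 124 to 229 CPM in FeCon and from 120.2 through 159 to 762 CPM in FeAAD, where 1 library, FeAAD3, was more than 3 times the next. FeAAD vs. FeCon was 0.87 ± 0.25 with an adjusted p of 0.00456 by edgeR, and FeAAD vs. FeNonAD was 0.85 ± 0.27 with an adjusted p of 0.0231, both under the fold threshold. Without FeAAD3 they were 0.39 (adjusted p = 0.103) and 0.37 (adjusted p = 0.202). Egr1 reached that threshold against FeCon without FeCon7 (1.01, adjusted p = 0.0013), without FeCon7 and FeCon9 (1.09, adjusted p = 0.000852) and without FeAAD5, FeAAD9 and MaAAD7 (1.01, adjusted p = 0.00221). With FeAAD3, FeCon7 and FeCon9 all left out the differences from FeCon and FeNonAD were 0.60 (adjusted p = 0.0087) and 0.36 (adjusted p = 0.166). In males Egr1 had medians of 97.5 CPM in MaCon, 132 in MaNonAD and 121 in MaAAD, and MaAAD vs. MaCon was 0.13 with an adjusted p of 0.747.

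Ier2, a small nuclear protein induced by serum and growth factors, was at 38.7 to 168 CPM in FeAAD with a median of 61.9 and at 29.1 to 54.5 CPM in FeNonAD with a median of 42.9, a difference of 0.84 ± 0.26 (adjusted p = 0.019 by edgeR) that stayed under the fold threshold. FeCon, at 28.7 to 153 CPM with a median of 43.7, differed from FeAAD by 0.39 (adjusted p = 0.186). This value depended on single libraries, and was 0.71 (adjusted p = 0.00605) without FeCon7, 0.85 (adjusted p = 0.000993) without FeCon7 and FeCon9, and 0.14 (adjusted p = 0.649) without FeAAD3. Without FeAAD3 the difference from FeNonAD was 0.58 (adjusted p = 0.0729). The male groups had medians of 40.6, 50.1 and 46.1 CPM from MaCon to MaNonAD and MaAAD.

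Atf3 (GRCm38 chr1:191170296-191218039), a CREB/ATF family factor induced by many cell stresses, was the only member called lower in an AAD group than in water controls of the same sex. MaCon ranged from 14.6 through 23.1 to 137 CPM, and MaAAD from 11.6 through 18.7 to 34.1 CPM. The medians were close, and 4 MaCon libraries, MaCon6 (137 CPM), MaCon4 (126 CPM), MaCon7 (68.1 CPM) and MaCon5 (39.3 CPM), lay above every MaAAD library. MaAAD vs. MaCon was -1.35 ± 0.48 (adjusted p = 0.0254 by edgeR). The call was lost when MaCon4, MaCon6, MaAAD1, MaAAD4 or MaAAD7 was left out in turn, where the adjusted p reached 0.0966, and without FeAAD5, FeAAD9 and MaAAD7 together (-1.27, adjusted p = 0.0537). The 4 MaNonAD libraries, at 18.8, 25.2, 22.7 and 24.6 CPM, lay within the ranges of both MaCon and MaAAD. By edgeR, MaAAD vs. MaNonAD was -0.26 (adjusted p = 0.857) and MaNonAD vs. MaCon was -1.09 (adjusted p = 0.474). In females the medians were 30.6 CPM in FeCon, 32.6 in FeNonAD and 27.9 in FeAAD, and FeAAD vs. FeCon was -0.45 with an adjusted p of 0.418. The sign turned without FeCon9, the library with 195 CPM, to 0.13 (adjusted p = 0.819), and without FeCon7 and FeCon9 the value was 0.28.

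Nr4a1, an orphan nuclear receptor that is known to dampen inflammation in macrophages and vessels, varied most between libraries. FeCon spanned 39.1 to 838 CPM with a median of 63.0, and FeCon9 (838 CPM) and FeCon7 (468 CPM) were above every other library of the series. MaCon spanned 32.7 to 140.2 CPM with a median of 54.1. MaCon vs. FeCon was -1.54 ± 0.45 (adjusted p = 0.0173 by edgeR), but the medians of these groups were close, and without FeCon7 and FeCon9 the difference was -0.12. With only FeCon9 left out it was -0.84 (adjusted p = 0.15). FeAAD was at 45.6 to 370.1 CPM with a median of 102, and FeAAD vs. FeCon was -0.57 with an adjusted p of 0.318. Here too the sign turned, to 0.15 (adjusted p = 0.791) without FeCon9 and to 0.85 (adjusted p = 0.0435), under the fold threshold, without FeCon7 and FeCon9. The 4 MaNonAD libraries were at 85.5, 171, 115 and 82.0 CPM and the 7 MaAAD libraries at 44.4 to 81.1 CPM. MaAAD vs. MaNonAD was -0.96 with an adjusted p of 0.402 by edgeR.

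Placed in order by group mean, the 6 groups of each member formed 5 neighbouring pairs, 50 in all, and 1 pair differed as a DEG, FeAAD above FeCon for Fos. FeAAD had the highest mean for Fos, Fosb, Junb, Egr1, Egr2, Egr3 and Ier2, and FeCon for Jun, Atf3 and Nr4a1. The rank of FeCon rested on FeCon7 and FeCon9. By median it was below FeAAD for Jun (107 against 122 CPM), below FeNonAD for Atf3 (30.6 against 32.6 CPM) and below FeNonAD for Nr4a1 (63.0 against 125 CPM). The medians also placed FeAAD below MaAAD for Junb (104 against 117 CPM) and Egr3 (9.57 against 9.77 CPM), and below FeNonAD for Fosb (36.0 against 36.3 CPM). The lowest mean was in MaAAD for Fos, Fosb, Jun, Atf3 and Nr4a1, in MaCon for Junb, Egr1, Egr2 and Egr3, and in FeNonAD for Ier2. Pairs of groups that differed in both sex and outcome were tested only for this order. MaCon vs. FeAAD had 6 members lower (Fos, Fosb, Junb, Egr1, Egr2 and Egr3, against 11.8% of all genes called), MaAAD vs. FeCon had 3 called (12.7%), MaCon vs. FeNonAD 2 (0.714%), MaAAD vs. FeNonAD 2 (7.55%), MaNonAD vs. FeAAD 1 (3.76%) and MaNonAD vs. FeCon 0 by edgeR (3.1%), with 0 at an unadjusted p under 0.05.

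Libraries of the same group differed more for the members than for most genes. The biological coefficient of variation was 33.5% for Jun to 65.5% for Nr4a1, against a median of 21.2% over all tested genes, and their dispersions lay at the 78.5th to the 96.5th percentile of all tested genes. Much of this spread lay in few libraries, and these were high for many members at the same time. FeAAD3 held the highest FeAAD value of 9 of the 10 members, all but Junb. FeCon7 was highest in FeCon for Fos, Jun, Junb, Egr1 and Ier2, and FeCon9 for the remaining members, Fosb, Egr2, Egr3, Atf3 and Nr4a1. The 10 members summed to 2687 CPM in FeAAD3, 1942 in FeCon9 and 1772 in FeCon7, against group medians of 878 in FeAAD and 530.1 in FeCon. In FeCon7 and FeCon9 the other induced lists were high as well. Feedback inhibitors summed to 3485 and 2777 CPM against a FeCon median of 1134, and rapidly induced effectors to 12450 and 11460 CPM against 5353. No label sets these libraries apart. Without these 3 libraries the calls of Egr2 and Egr3 against water remained in both sexes, as did Fos in FeAAD vs. FeCon (1.57, adjusted p = 0.0009) and Junb in MaAAD vs. MaCon. Fosb in FeAAD vs. FeCon went under the fold threshold (0.84, adjusted p = 0.0374), and Junb became a DEG there (1.23, adjusted p = 0.000603). The rise of Junb over FeCon depended on the libraries kept, from 1.37 (adjusted p = 0.000178) without FeCon7 and FeCon9 to 0.19 (adjusted p = 0.703) without FeAAD5, FeAAD9 and MaAAD7.

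Whether the same libraries were high for different members was examined with deviations from the group means of log2(CPM + 1) over the 48 libraries, for all 45 pairs of members. Pearson's r ranged from -0.03 to 0.87 with a median of 0.475, was positive in 43 pairs and had an adjusted permutation p under 0.05 in 34, of which 21 also passed by Spearman's rho. Junb and Ier2, which lie on the same chromosome (8:84974484-84978718 and 8:84661331-84662852 in GRCm38), were closest, with r = 0.866, rho = 0.845 and r = 0.809 without the 2 libraries farthest from the median. Adjusted permutation p-values were 5.6e-05 for r, which rests on the smallest p the 100000 resamples can give, and 9e-05 for rho. Atf3 went with Jun (r = 0.754, rho = 0.681), Fosb (r = 0.743, rho = 0.773) and Nr4a1 (r = 0.708, rho = 0.683), and these had the same adjusted permutation p-values. Fos went with Egr1 (r = 0.753, rho = 0.651) and Junb (r = 0.707, rho = 0.605), with adjusted permutation p-values of 5.6e-05 for r and 0.00015 and 0.00022 for rho. Without the 2 farthest libraries r was 0.719 for Jun and Atf3, 0.742 for Fosb and Atf3, 0.641 for Atf3 and Nr4a1, 0.653 for Fos and Egr1 and 0.668 for Fos and Junb. Junb was not related to Atf3 (r = -0.01, adjusted permutation p = 0.95) or Egr3 (r = -0.03, adjusted permutation p = 0.88). In 8 of the 34 pairs r went under 0.3 without the 2 farthest libraries. Without FeAAD3, FeCon7 and FeCon9 the median r of the 45 pairs was 0.247 and 33 were positive. These 3 libraries were chosen for being high in many members at once, so that a lower r was bound to follow. The pairs Junb and Ier2 (0.787), Fosb and Atf3 (0.702), Jun and Atf3 (0.694), Fos and Junb (0.634), Fos and Egr1 (0.626), Fosb and Nr4a1 (0.624) and Egr1 and Egr3 (0.617) kept an r above 0.6, while Atf3 and Nr4a1 went to 0.581 and Junb and Atf3 went to -0.423.

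**Figure D3:**
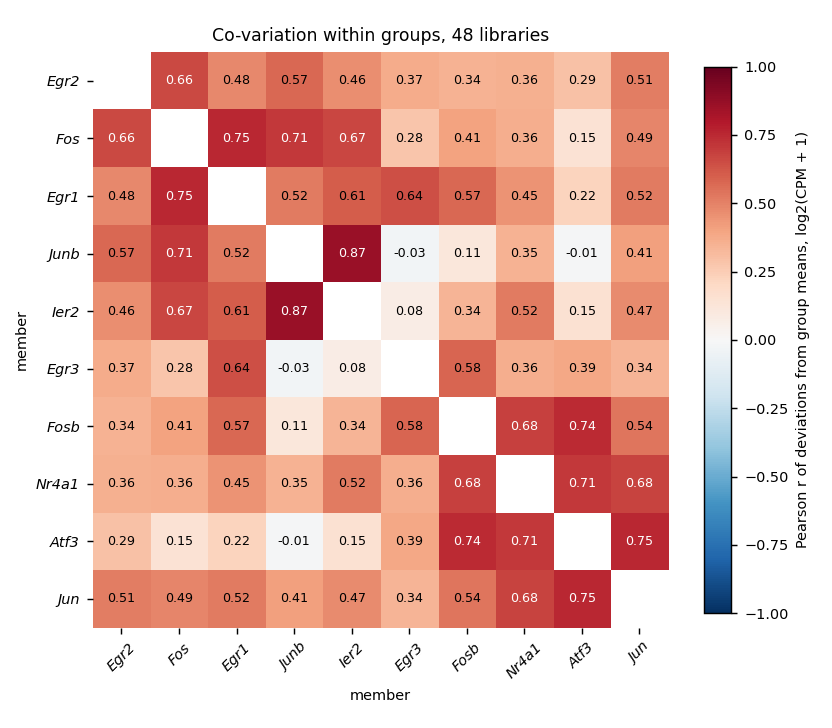
Pearson's r between the members' deviations from their group means over 48 libraries, from -0.03 for Junb and Egr3 to 0.866 for Junb and Ier2. Atf3 was close to Jun, Fosb and Nr4a1, and Fos to Egr1 and Junb.

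Outside the members, the 10 tested genes whose deviations were most like the mean standardized deviation of the members over the 48 libraries were Btg2 (r = 0.891), Dusp1 (0.763), Ccn1 (0.747), Zfp36 (0.696), Csrnp1 (0.694), Sik1 (0.66), Ppp1r15a (0.651), Cep112 (0.62), Arl4d (0.606) and Sgk1 (0.589). All but Cep112 and Arl4d were in the lists of induced genes given next. These correlations share the libraries and the 3 high libraries with the members and are a description, without a test.

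The wider immediate early response was followed in lists of the genes around the members. Of all tested genes 12.7% were DEGs in FeAAD vs. FeCon (9.94% higher), 11.4% in MaAAD vs. MaCon (9.18% higher), 7.04% in FeAAD vs. FeNonAD, 2.75% in FeNonAD vs. FeCon and 1.51% in MaCon vs. FeCon, and the counts that follow stand beside these shares. Among 18 tested of 19 other immediate early factors, 1 was higher and 3 were lower in FeAAD vs. FeCon. Fosl1, an AP-1 subunit, rose by a log2 fold change of 1.82, while Maff (-1.59), a small MAF factor, and Nr4a2 (-1.29) and Nr4a3 (-1.13), the paralogs of Nr4a1, fell. In MaAAD vs. MaCon 3 were higher, Fosl1 (2.49), the clock-linked repressor Bhlhe40 (1.78) and Myc (1.34), and 0 were lower. Fosl1, Ier3 (1.32) and Myc (1.16) were also higher in FeAAD vs. FeNonAD. Maff (-1.70) and Nr4a2 (-1.55) were lower in FeNonAD vs. FeCon, and Bhlhe40 (1.51) was higher in MaNonAD vs. MaCon. Both NR4A paralogs and Maff were also lower in MaCon than in FeCon, with Nr4a2 at -2.01, Nr4a3 at -1.65 and Maff at -1.64, as was Bhlhe40 at -1.16. FeCon7 and FeCon9 stood apart in this list too, at 2820 and 3115 CPM against a FeCon median of 1387. In a fit without them 2 factors were higher and 2 were lower in FeAAD vs. FeCon, with Myc (1.14) now called, Maff (-1.44) and Nr4a3 (-1.05) still lower and Nr4a2 at -0.49 (adjusted p = 0.0737). In that fit Maff (-1.54) was lower in FeNonAD vs. FeCon and Nr4a2 (-0.74) was under the fold threshold, while Nr4a2 (-1.20), Nr4a3 (-1.56), Maff (-1.49) and Bhlhe40 (-1.13) were lower in MaCon vs. FeCon. The median log2 fold change of the 18 factors was -0.22 in FeAAD vs. FeCon, or 0.39 without FeCon7 and FeCon9, and 0.014 in MaAAD vs. MaCon.

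Of 18 kinases and factors that act upstream of the members, 2 were higher in both AAD groups against water, the ribosomal S6 kinase Rps6ka1 (1.89 in FeAAD, 2.09 in MaAAD) and the SRF partner Elk3 (1.10 and 1.05), and Rps6ka1 was higher in FeAAD vs. FeNonAD (1.41). Of 20 feedback inhibitors 4 rose and 1 fell in FeAAD vs. FeCon, and 3 rose and 1 fell in MaAAD vs. MaCon. Socs3, the inhibitor of cytokine signalling, rose most (1.93 in FeAAD, 2.57 in MaAAD, and 1.45 in FeAAD vs. FeNonAD), the MAP kinase phosphatases Dusp5 and Dusp2 rose in both sexes, and Spry4 (1.28) rose in FeAAD. Errfi1 (-1.63), which restrains the EGF receptor, fell in FeAAD, and Dusp8 (-1.26) fell in MaAAD. Spry4 (1.01) was also higher and Errfi1 (-1.45) lower in FeNonAD vs. FeCon. Without FeCon7 and FeCon9 the 4 that rose were again DEGs in FeAAD vs. FeCon, as was Spry4 in FeNonAD vs. FeCon (1.02), and Errfi1 was at 0.33 (adjusted p = 0.35) in FeAAD and 0.53 (adjusted p = 0.241) in FeNonAD, so that its fall rested on these libraries.

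Rapidly induced effectors were higher in 7 of 28 genes in each AAD group against water, and 0 were lower. Thbs1, the matricellular protein thrombospondin 1, rose by 3.63 in FeAAD and 3.32 in MaAAD, and Ptgs2, the inducible cyclooxygenase, by 3.42 and 3.07. Rgs1 (2.23 and 3.08) and the kinase Plk2 (1.25 and 1.95) rose in both sexes, and Arc (1.95), itself a known target of EGR factors, was among those that rose in FeAAD. The median over the 28 genes was 0.33 in FeAAD vs. FeCon, or 0.71 without FeCon7 and FeCon9, and 0.22 in MaAAD vs. MaCon. In FeNonAD vs. FeCon 2 were higher, Arc (1.44) and Thbs1 (1.15), and in FeAAD vs. FeNonAD 5 were higher. In MaCon vs. FeCon 1 was lower, Sik1 (-1.49). Of 8 stress-induced ATF4 targets, Asns (1.10) rose and Ppp1r15a (-1.003) fell in FeAAD vs. FeCon, and 0 changed in MaAAD vs. MaCon. Ddit4 (-1.48) was lower in FeNonAD vs. FeCon, and without FeCon7 and FeCon9 it was at 0.49 (adjusted p = 0.295). Without FeCon7 and FeCon9 effectors were higher in 9 of 28 in FeAAD vs. FeCon, Arc was again higher and Thbs1 (1.13, adjusted p = 0.0504) was not called in FeNonAD vs. FeCon, Sik1 was at 0.06 in MaCon vs. FeCon, and Ppp1r15a was at -0.48 in FeAAD vs. FeCon, under the fold threshold. No gene of these lists was a DEG in MaAAD vs. FeAAD.

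Several other lists moved with the groups or with single libraries. All 8 macrophage markers were higher in both AAD groups against water, summing to 562.5 to 5309 CPM in FeAAD against 237 to 562 in FeCon, and to 752 to 3428 CPM in MaAAD against 197 to 516.5 in MaCon. Of 7 neutrophil markers tested, 6 were higher in FeAAD, and 4 were higher and 1 lower in MaAAD. Their sum was 1150 CPM in FeAAD5, 401 in MaAAD7 and 268 in FeAAD9, against medians of 17.5 in FeAAD, 30.1 in MaAAD, 12.5 in FeCon and 14.5 in MaCon. The same 3 libraries were high in Fos (205, 75.4 and 158 CPM), Junb (309.8, 202 and 278 CPM) and Egr2 (25.4, 15.7 and 19.3 CPM), and not in Egr3, with 5.97, 6.30 and 6.53 CPM. Without them Egr2 was still higher in FeAAD vs. FeCon (2.09, adjusted p = 5.99e-09) and in MaAAD vs. MaCon (1.52, adjusted p = 5.14e-06). Fos was higher in FeAAD vs. FeCon by 1.61 (adjusted p = 0.00264), and Junb was higher in MaAAD vs. MaCon by 1.38 (adjusted p = 0.00255) and in FeAAD vs. FeNonAD by 1.16 (adjusted p = 0.0401), while Junb in FeAAD vs. FeCon was 0.19 (adjusted p = 0.703). Contractile smooth muscle genes were lower in 6 of 10 in FeAAD and in 7 of 10 in MaAAD. Red blood cell markers were higher in 7 of 7 in FeAAD vs. FeCon, with a median log2 fold change of 3.58 and in 5 of 7 in FeAAD vs. FeNonAD, and had a median of 0.89 in MaAAD vs. MaCon. They summed to 262.6 to 27060 CPM in FeAAD with a median of 672.8, where FeAAD2 was the highest, against 159.4 to 723.2 CPM in FeCon. T and B cell markers were higher in 4 of 8 in FeAAD vs. FeCon (3.40 to 29.97 CPM against 2.27 to 7.47) and in 2 of 8 in MaAAD vs. MaCon. Heart muscle markers were lower in 6 of 10 in FeAAD vs. FeCon, at 38.6 to 134.9 CPM against 63.9 to 715.5. The part of these cell types in the members' differences was not tested.

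**Figure D4:**
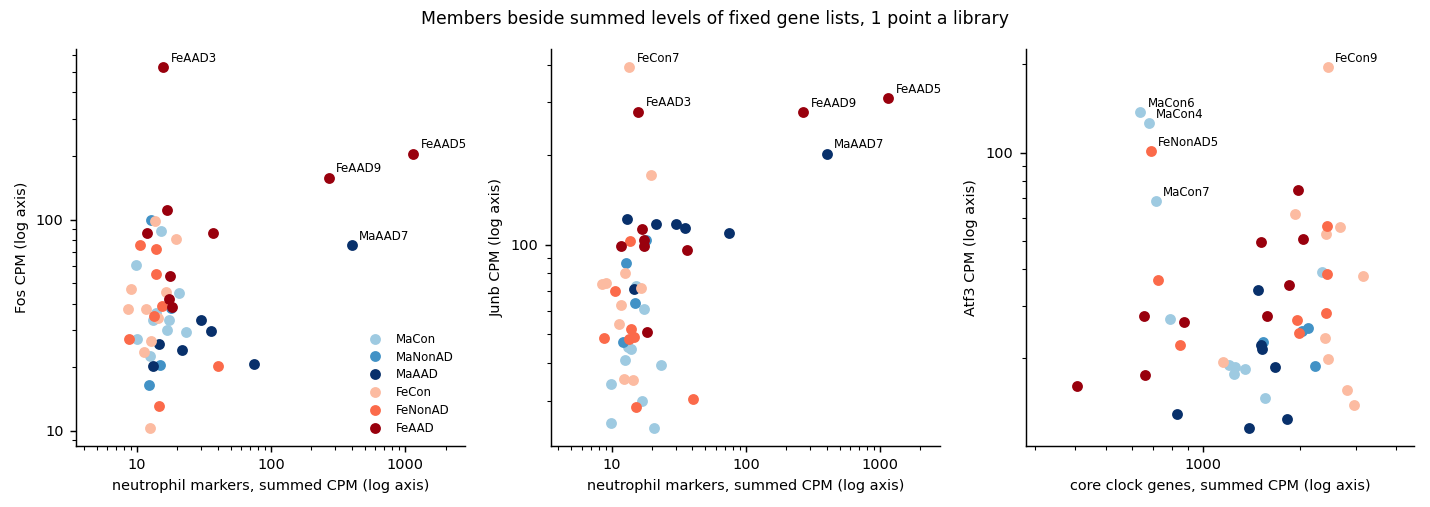
CPM (log axes) of Fos and Junb against the summed CPM of neutrophil markers, and of Atf3 against that of core clock genes, 1 point per library. FeAAD5, FeAAD9 and MaAAD7 were high on both axes of the first panels, and FeAAD3 (Fos 526 CPM) and FeCon7 (Junb 393 CPM) were high at a low neutrophil sum. MaCon4, MaCon6, MaCon7 and FeNonAD5 had high Atf3 at low clock sums, FeCon9 had high Atf3 at a high clock sum, and several libraries such as FeAAD5 (Atf3 16.0 CPM) and MaAAD7 (12.8 CPM) had low Atf3 at low clock sums.

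Atf3 was also set beside the core clock genes and the heat shock chaperones. Core clock genes, which include Per1 and Nr1d1, summed to 639 CPM in MaCon6, 680 in MaCon4 and 714 in MaCon7, against a MaCon median of 1227, and FeNonAD5, with 101 CPM of Atf3 the highest of FeNonAD, was at 689 against a median of 1977. Other libraries had low clock sums without a high Atf3, from FeAAD5 (407 CPM, Atf3 16.0 CPM) to FeAAD7 (873 and 26.5 CPM), among them MaAAD7 (831 and 12.8 CPM) and FeNonAD6 (724 and 36.9 CPM). In MaAAD vs. MaCon 1 of 14 clock genes was higher, Per3 (1.34), and 2 were lower, Npas2 (-3.15) and Arntl (-2.78). Heat shock chaperones were lower in 7 of 10 in MaAAD vs. MaCon, led by Hspb1 (-1.79), Hsph1 (-2.12), Hspa1a (-3.52) and Hspa1b (-3.60), and summed to 3277 to 9668 CPM in MaCon against 1719 to 2719 CPM in MaAAD. In MaNonAD vs. MaCon 3 of 10 were lower, Hspa1a (-2.72), Hspa1b (-2.94) and Hsp90aa1 (-1.08). In FeAAD vs. FeCon 1 of 10, Hspb1 (-2.21), was lower, as it was in FeNonAD vs. FeCon (-1.92). In MaCon vs. FeCon 3 of 10 were higher, Hspa1a (1.80), Hspa1b (2.12) and Hsph1 (1.03). Core clock genes were lower in 3 of 14 in FeAAD vs. FeCon and in 6 of 14 in MaCon vs. FeCon, where Junb and Nr4a1 were also lower. Without FeCon7 and FeCon9, 5 of 14 were lower and 1 was higher in MaCon vs. FeCon, while Junb (-0.54) and Nr4a1 (-0.12) were not DEGs. In FeAAD vs. FeCon 2 were then lower. Clock sums were 1934 CPM in FeCon7 and 2447 CPM in FeCon9, against a FeCon median of 2446 CPM. Their part in the differences of Atf3, Junb and Nr4a1 was not tested.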

How the data were processed

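RNA of 48 thoracic aortas was sequenced by the authors on a strand-specific protocol, and per the labels reads were processed with Bowtie2 and RSEM 1.3.1 on GRCm39. The deposited values were expected counts per gene, not scaled to depth, of which 4.99% were not whole. No member had such a value. They were rounded to whole counts (a change of at most 24.1 per library), and totals had a median of 15681333.5. edgeR 4.0.16 in R 4.3.3 (filterByExpr, TMM, robust quasi-likelihood test, a mean for each of 6 groups) tested 9 pairs of groups, 6 further pairs for the order of levels, and 3 interactions, with Benjamini-Hochberg adjustment over 14431 genes. Standard errors came from the fold change and the F statistic. The p-values measure the spread between mice, with replicate numbers taken from the labels. Correlations used 100000 permutations of libraries within groups and a pseudocount of 1. Analyses used Python 3.11.15, pandas 2.3.3, NumPy 2.4.6, SciPy 1.17.1 and Matplotlib 3.10.9. Positions and transcript lengths were from GENCODE M21. The test scripts were tested on simulated data. Alternatives were DESeq2 1.42.0, its size factors, no filter on low counts, no robust estimation, adjusted p alone, leaving out each library, fitting only the groups compared, and a block for the replicate number. Removing FeCon7 and FeCon9, these with FeAAD3, or FeAAD5, FeAAD9 and MaAAD7 was chosen after seeing the data (for the lists, the first only). All 10 members are named, with at most the 4 genes of largest fold change per list and comparison, and the 10 genes most like the members. Genes named beyond these were chosen after their values were seen. Members and lists were chosen with earlier results of these data known.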

Additional observations from a re-analysis of the deposited data

Results flagged for a closer look

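In 17 of the 60 sets of 1 member in 1 group, the highest library stood farther from the others than Dixon's test at 95% allows. The test takes values as normally distributed, and it was run on CPM without logs. Members also co-varied, so the sets were not independent and no chance rate is set beside the 17. The 17 sets lay in 7 libraries. FeAAD3 accounted for 6, with Fos at 526 CPM against 205 in the next library, Fosb at 188 against 51.0, Jun at 259.7 against 142, Egr1 at 762 against 249, Ier2 at 168 against 90.2 and Nr4a1 at 370.1 against 139.6. MaAAD7 accounted for 3, with Fos at 75.4 CPM against 33.4, Junb at 202 against 122 and Egr2 at 15.7 against 10.1. In FeCon, Junb (393 against 172) and Ier2 (153 against 80.7) stood apart in FeCon7, and Fosb (56.7 against 31.3) and Atf3 (195 against 61.7) in FeCon9. FeNonAD5 stood apart for Jun (177 against 119) and Atf3 (101 against 56.2), FeNonAD1 for Fosb (88.2 against 46.7) and MaCon2 for Egr1 (166.5 against 123).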

How the results depend on the processing

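Calls at the margin of 0.05 depended on single libraries, and the wide spread of the members limits what differences these group sizes can show. Egr2, Egr3 and Fos in FeAAD vs. FeCon, Egr2, Egr3 and Junb in MaAAD vs. MaCon and Egr2, Fos and Junb in FeAAD vs. FeNonAD were called with each of the 48 libraries left out and under the other 9 alternatives. Fosb in FeAAD vs. FeCon was called in 47 of 48, and Atf3 in MaAAD vs. MaCon in 43. Of 840 single values under 7 alternatives 824 kept their side of the threshold, as did 5702 of 5760 with a library left out, and no called value changed sign, whereas 32 uncalled values did.

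The count of members called moved as follows. In MaNonAD vs. MaCon it was 1 (Egr3) with the compared groups only. In FeNonAD vs. FeCon it was 2 by adjusted p alone, 1 without FeCon7 and FeCon9, 2 without these and FeAAD3, and 0 to 1 with 1 library left out. In FeAAD vs. FeCon it was 5 by adjusted p alone, 6 without FeCon7 and FeCon9, 5 without FeAAD5, FeAAD9 and MaAAD7, and 3 (without FeAAD3) to 6 (without FeCon7) with 1 library left out. In MaAAD vs. MaCon it was 3 without FeAAD5, FeAAD9 and MaAAD7, and 3 to 4 with 1 library left out. By adjusted p alone it was 5 in FeAAD vs. FeNonAD. In MaCon vs. FeCon it was 1 with the replicate block, 1 with the compared groups only, 0 in both fits without FeCon7 and FeCon9, and 1 to 2 with 1 library left out. In MaAAD vs. FeAAD it was 1 with DESeq2's size factors, 0 without the filter, 0 with the replicate block, 0 with the compared groups only, 0 without FeAAD3, FeCon7 and FeCon9, and 0 to 2 with 1 library left out. For the sex difference in AAD vs. Con it was 1 by DESeq2, 1 without FeCon7 and FeCon9, and 0 to 1 with 1 library left out. The median co-variation was 0.247 without FeAAD3, FeCon7 and FeCon9. The cause was not tested.

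Counts over all genes moved for MaAAD vs. MaNonAD (51 DEGs, 518 by DESeq2, 168 with its size factors, 99 without robust estimation, 0 without the filter, with the replicate block or with the compared groups only, and 0 to 712 with 1 library left out), MaNonAD vs. MaCon (69, 141 with the compared groups only, 15 to 89), MaAAD vs. FeAAD (10, 5 with the replicate block or the compared groups only), FeAAD vs. FeNonAD (1016, 633 without FeAAD5, FeAAD9 and MaAAD7) and the sex differences in NonAD vs. Con (43, 93 by DESeq2, 12 to 117), AAD vs. Con (75, 129 by DESeq2, 49 to 150) and AAD vs. NonAD (0, 1 by DESeq2).

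Libraries of the same replicate number did not deviate together. The mean correlation of such pairs was -0.066 to 0.16 over the 9 comparisons, and at most 2 libraries of a comparison correlated best with their own number, so that the replicate block reflects a shared number only.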
